A study of Mus musculus with 12 samples.

Results

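*Sbsn*, *Dmkn* and *Krtdap* are neighbouring genes of mouse chromosome 7 that encode secreted proteins of the epidermis. They were taken by gene name from the count table, where they make up 3 of 21947 loci. The 1 locus in which the name *Sbsn* was joined by a comma to that of *Gapdhs* was left out, because its reads cannot be assigned to 1 gene. RNA-Seq counts were available for 12 libraries of differentiating primary keratinocytes from BALB/c neonatal mice. The cells were kept at 0.05 mM Ca2+ and received 75 pmol of an siRNA pool in 10 of the 12 libraries. They were brought to 0.12 mM Ca2+ to start differentiation, and RNA was taken 48 h after siRNA transfection. The time from the rise in Ca2+ to the harvest is not given in the Methods.

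The libraries came in 2 batches, as the labels name them. Batch 1 held 2 libraries without siRNA, 2 with a non-targeting pool (siControl) and 2 with a pool directed against *Sbsn* (siSbsn). Batch 2 held 3 siControl and 3 siSbsn libraries, numbered 1 to 3 and 4 to 6. The siRNA lowers a transcript without deleting the gene, and the cultures were wild type apart from it. The labels do not say whether libraries of a group came from separate animals, so the p-values measure only the spread between these libraries, which may be technical. The libraries held between 27934836 and 49553923 counts. The batches separated on the first principal component, with 64% of the variance, and the library labelled siControl batch 1 replicate 1 stood apart from the others on the second, at 57.3 against -28 to 22.1. The 10 keratinocyte markers fixed for the check, among them *Krt5* and *Krt14*, summed to between 51669 and 124358 CPM, the read count scaled to a common library size. The 8 fibroblast markers summed to between 389 and 1213 CPM, the 6 melanocyte markers to between 699 and 1036 CPM, the 7 immune markers to between 1.79 and 11.1 CPM and the 5 endothelial markers to between 1.22 and 3.28 CPM. The Langerhans cell marker *Cd207* was at 0 in every library.

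The epidermis renews itself from a basal layer whose cells stop dividing, move upwards and fill with structural proteins before they are shed. Suprabasin (*Sbsn*) was named for its expression above the basal layer and is a proposed precursor of the cornified envelope, the protein shell of the dead surface cells. Dermokine (*Dmkn*) is a secreted protein of the upper epidermis with several isoforms, and *Krtdap* encodes keratinocyte differentiation-associated protein, a small secreted peptide. The 3 genes lie side by side on the same strand, in an arrangement that is also found in the human genome.

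In mm10, *Sbsn* occupied chr7:30751471-30756134, with a longest coding transcript of 2221 bases in 4 exons. *Dmkn* started 7.62 kb downstream at chr7:30763756-30781066, with 2063 bases in 20 exons. *Krtdap* followed after a further 6.84 kb at chr7:30787905-30791083, with 470 bases in 6 exons. All were on the plus strand. The 250 bases before each annotated start are shown because the 3 genes shared a low level in batch 2, described later, and because the windows have 1 short element in common. The sequences are from RefSeq (GRCm38.p6, the build named mm10), read 5′ to 3′ on the plus strand. The capitals mark the match to TGANTCA, which was searched on both strands. It is a loosened form, with any middle base, of the element bound by AP-1 (Fos and Jun) factors. The windows span chr7:30751221-30751470 for *Sbsn*, chr7:30763506-30763755 for *Dmkn*, chr7:30776155-30776404 for a start inside *Dmkn* and chr7:30787655-30787904 for *Krtdap*.
Sbsn: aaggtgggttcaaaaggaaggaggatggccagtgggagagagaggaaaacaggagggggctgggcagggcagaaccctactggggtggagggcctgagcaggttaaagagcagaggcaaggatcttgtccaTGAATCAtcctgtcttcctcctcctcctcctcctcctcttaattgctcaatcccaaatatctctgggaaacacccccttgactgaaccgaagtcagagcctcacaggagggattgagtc
Dmkn, first start: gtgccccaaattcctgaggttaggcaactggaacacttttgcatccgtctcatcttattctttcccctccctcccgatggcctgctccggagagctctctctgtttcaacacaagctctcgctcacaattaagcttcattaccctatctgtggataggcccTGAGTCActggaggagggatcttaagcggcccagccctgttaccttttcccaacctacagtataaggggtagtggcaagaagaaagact
Dmkn, internal start: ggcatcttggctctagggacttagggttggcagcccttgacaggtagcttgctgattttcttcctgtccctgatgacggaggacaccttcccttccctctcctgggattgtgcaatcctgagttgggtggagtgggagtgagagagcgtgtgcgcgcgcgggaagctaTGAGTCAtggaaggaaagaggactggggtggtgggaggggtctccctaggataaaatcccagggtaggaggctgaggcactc
Krtdap: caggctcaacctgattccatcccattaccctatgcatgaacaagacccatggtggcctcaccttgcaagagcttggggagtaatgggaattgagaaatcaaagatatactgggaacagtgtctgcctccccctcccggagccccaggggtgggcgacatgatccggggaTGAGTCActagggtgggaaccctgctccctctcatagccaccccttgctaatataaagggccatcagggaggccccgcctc

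Each window held 1 match. It stood 119 bases before the *Sbsn* start, 89 bases before the first *Dmkn* start, 82 bases before the internal *Dmkn* start and 81 bases before the *Krtdap* start. The letters were TGAATCA at *Sbsn* and TGAGTCA at the others, so the printed windows share the match only through the open middle base. A further TGAGTCA began 6 bases before the *Sbsn* start and ran 1 base past it, so it was outside the window printed. Of 32851 RefSeq promoter windows of the same length, 2217 (6.7%) held the element on either strand. This share is a background and no test, because the windows were printed for holding the element. Whether the element bears on the low level in batch 2 was not tested. The box CACCC, the core of the sites of KLF factors, had 2 matches at *Sbsn*, 0 at the first *Dmkn* start, 2 at the internal start and 3 at *Krtdap*, and was found in 52.0% of all windows. The letters TATAAA were found at *Krtdap* alone of these windows, 30 bases before its start, and in 12.4% of all windows. All 3 motifs were searched on both strands, and no match of 1 overlapped a match of another in these windows. A match describes the letters and does not show that a factor was bound.

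*Sbsn* was the gene the siRNA was directed against and was examined first. In batch 2 its level was 371, 332 and 459 CPM in siControl and 124, 125 and 121 CPM in siSbsn. The siSbsn libraries lay together and below every siControl library of the batch. In batch 1 it was 1697 and 1231 CPM without siRNA, 1189 and 1356 CPM in the libraries labelled siControl, and 1965 and 696 CPM in those labelled siSbsn. The library labelled siSbsn batch 1 replicate 1 therefore had the highest *Sbsn* level of all 12 libraries, and the library labelled siSbsn batch 1 replicate 2 had the lowest of batch 1. The label of the former is not matched by a low level of its target, and every direction drawn from batch 1 rests on 2 libraries per group of which this is 1.

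*Dmkn* ranked between 9 and 61 among all loci of a library by CPM. Its level was 4403 and 2662 CPM without siRNA, 5655 and 3086 CPM in siControl and 4989 and 3279 CPM in siSbsn of batch 1. In batch 2 it was 1167, 1073 and 1373 CPM in siControl and 1178, 1224 and 1146 CPM in siSbsn. Within each batch the groups overlapped, and the number 1 library was the higher of the pair in every group of batch 1.

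*Krtdap* followed the same order. It was at 933 and 379 CPM without siRNA, 1297 and 441 CPM in siControl and 1171 and 578 CPM in siSbsn of batch 1. In batch 2 it was at 235, 204 and 290 CPM in siControl and 226, 236 and 234 CPM in siSbsn. The groups overlapped within each batch here too, and no library of batch 2 reached the lowest of batch 1, as was also the case for *Dmkn* and *Sbsn*.

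Levels can be compared between genes only per length, for which CPM was divided by the length of the longest coding transcript in kb. On that scale *Sbsn* ranged from 54.5 to 885, *Dmkn* from 520 to 2741 and *Krtdap* from 434 to 2760 CPM per kb over the 12 libraries. In siControl of batch 2 the means were 174 ± 29.1 for *Sbsn*, 584 ± 74.6 for *Dmkn* and 518 ± 93.1 for *Krtdap* (SD, n = 3). *Dmkn* was somewhat higher than *Krtdap* in each of these 3 libraries, with a ratio per kb of 1.13, 1.20 and 1.08. *Sbsn* was lower than both in each of them. These orders rest on the longest coding transcripts. The shortest ones were 432 bases for *Sbsn*, 662 for *Dmkn* and 323 for *Krtdap*. The highest library exceeded the lowest 16.2-fold for *Sbsn*, 5.27-fold for *Dmkn* and 6.36-fold for *Krtdap*. In bulk RNA fewer cells of a type and less RNA per cell cannot be told apart.

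**Figure D1:**
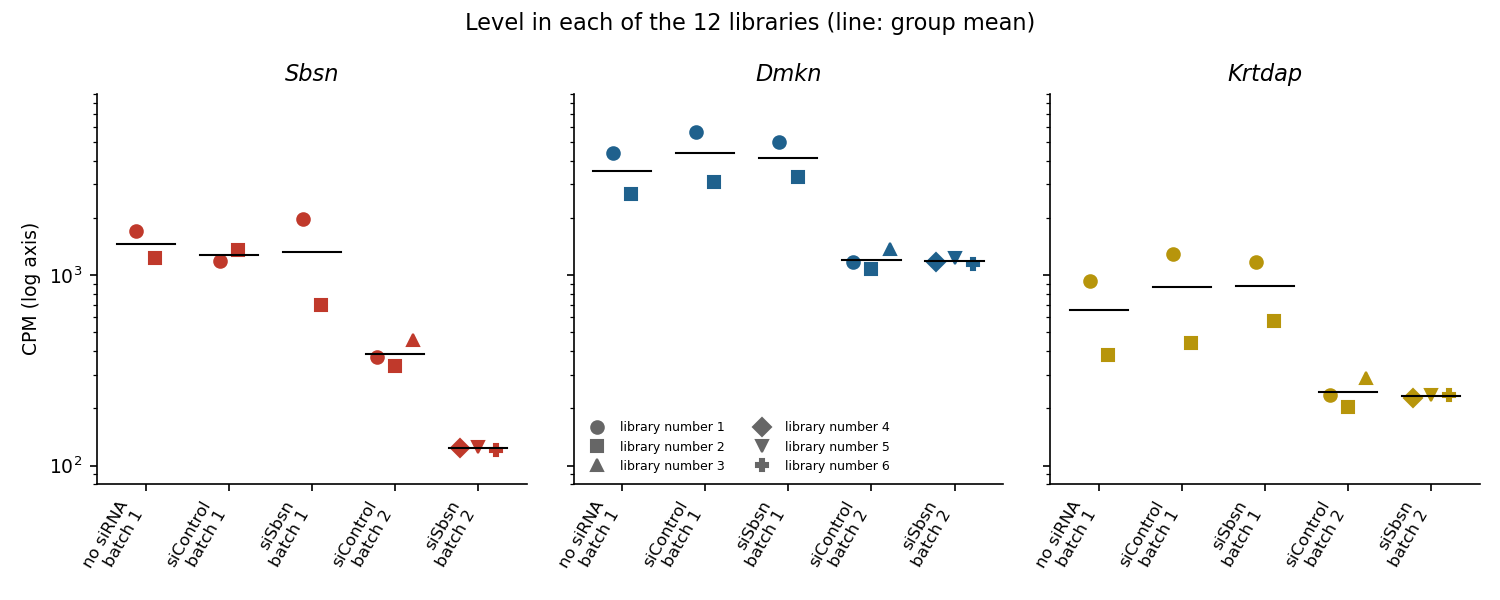
Level of *Sbsn*, *Dmkn* and *Krtdap* in CPM on a log axis in each of the 12 libraries, by group, with marker shapes for the library numbers and a line at each group mean. In batch 2 the siSbsn libraries sit at 121 to 125 CPM for *Sbsn*, below the siControl libraries at 332 to 459 CPM, while the groups overlap for the other 2 genes.

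The comparison of siSbsn with siControl gives the size of the knockdown and shows how the neighbours of the target behaved in the same cultures. In batch 2, *Sbsn* was down-regulated with a log2-fold change of -1.64 (SE 0.101, q = 0.00056, edgeR quasi-likelihood test with Benjamini-Hochberg adjustment), which leaves 32.0% of the siControl level. It was the 1 locus called of 12924 tested (0.00774%), the call being a q under 0.05 with a log2-fold change beyond 0.5 in either direction. DESeq2 called 7 loci (0.0764%), and *Sbsn* had the smallest p by both tools. *Dmkn* had a log2-fold change of -0.019 (SE 0.0848, edgeR q = 0.937) and *Krtdap* of -0.06 (SE 0.105, edgeR q = 0.832), and neither was called. The exact two-sided permutation test of *Sbsn* over the 6 libraries gave p = 0.1, the smallest that 3 against 3 allows. When all 12 libraries were placed in 1 edgeR fit, the log2-fold change of *Sbsn* was -1.65 but its q was 1.0 and no locus was called (240 at an unadjusted p under 0.05), so the call rests on the spread within batch 2. Over the other alternatives the q of *Sbsn* ranged up to 0.0223.

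In batch 1 none of the 3 genes was called between the libraries labelled siSbsn and siControl. The log2-fold change was 0.029 (SE 0.45, edgeR q = 0.975) for *Sbsn*, -0.12 (SE 0.399, edgeR q = 0.877) for *Dmkn* and -0.039 (SE 0.629, edgeR q = 0.976) for *Krtdap*. The standard errors were 4 or more times those of batch 2. Of 13176 loci tested, 0 were called (0.0%) by edgeR (2077 had an unadjusted p under 0.05) and 168 by DESeq2 (1.38%). When the library labelled siSbsn batch 1 replicate 1 was left out, *Sbsn* had a log2-fold change of -0.90 (edgeR q = 0.666), and when that labelled siSbsn batch 1 replicate 2 was left out it had one of 0.59 (edgeR q = 0.637). Over all alternatives its q ranged from 0.637 to 1.0.

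With both batches in the model, *Sbsn* had a log2-fold change of -0.96 (SE 0.353, edgeR q = 0.256), *Dmkn* of -0.041 (SE 0.167, edgeR q = 0.882) and *Krtdap* of -0.03 (SE 0.267, edgeR q = 0.946). Of 13211 loci, 0 were called by edgeR (0.0%), with 2501 at an unadjusted p under 0.05, and 96 by DESeq2 (0.805%), which gave *Sbsn* a q of 0.091. *Sbsn* was thus not called over the 5 siSbsn and 5 siControl libraries by either tool. The siSbsn effect on *Sbsn* was lower in batch 2 than in batch 1 by 1.70 on the log2 scale (SE 0.474). The interaction test gave a q of 0.272 by edgeR, which called 0 of 13419 loci (0.0%, 1991 at an unadjusted p under 0.05), and a q of 0.0389 by DESeq2, which called 206 (1.7%). The difference between the batches was 0.072 for *Dmkn* (SE 0.352, edgeR q = 0.924) and -0.058 for *Krtdap* (SE 0.569, edgeR q = 0.964).

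The ratio of *Sbsn* to a neighbour in the same library does not depend on depth or on scaling to library size, although a trend on gene length does not cancel in it. In batch 2 the ratio to *Dmkn* was 31.8%, 30.9% and 33.4% in siControl and 10.5%, 10.2% and 10.6% in siSbsn. In batch 1 it was 38.5% and 46.3% without siRNA, 21.0% and 43.9% in the libraries labelled siControl replicates 1 and 2, and 39.4% and 21.2% in those labelled siSbsn replicates 1 and 2. The library labelled siControl batch 1 replicate 1 therefore had nearly the same low ratio as the library labelled siSbsn batch 1 replicate 2. The former had *Sbsn* at 1189 CPM and the highest *Dmkn* of the 12 libraries (5655 CPM). The latter had the lowest *Sbsn* of batch 1 (696 CPM) and *Dmkn* at 3279 CPM. The library labelled siSbsn batch 1 replicate 1 lay between the libraries without siRNA. Against the library without siRNA of the same number, the ratio was 54.6% and 95.0% in the libraries labelled siControl and 102% and 45.9% in those labelled siSbsn.

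The ratio of *Sbsn* to *Krtdap* was examined in the same way. It was 1.82 and 3.25 without siRNA, 0.917 and 3.07 in the libraries labelled siControl and 1.68 and 1.20 in those labelled siSbsn of batch 1. In batch 2 it was 1.58, 1.63 and 1.58 in siControl and 0.547, 0.53 and 0.518 in siSbsn. The lowest of the 6 libraries of batch 1 was the one labelled siControl replicate 1, which had the highest *Krtdap* of all (1297 CPM). It was followed by the one labelled siSbsn replicate 2, and the one labelled siSbsn replicate 1 was below both libraries without siRNA. Why the number 1 libraries of batch 1 go against their labels in these ratios was not tested, and their labels were kept as given.

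*Dmkn* and *Krtdap* were not targets of the siRNA. Their ratio was 4.72 and 7.03 without siRNA, 4.36 and 7.0 in siControl and 4.26 and 5.67 in siSbsn of batch 1, where the number 2 library was higher in every group. In batch 2 it was 4.96, 5.27 and 4.73 in siControl and 5.21, 5.20 and 4.90 in siSbsn, which overlapped.

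**Figure D2:**
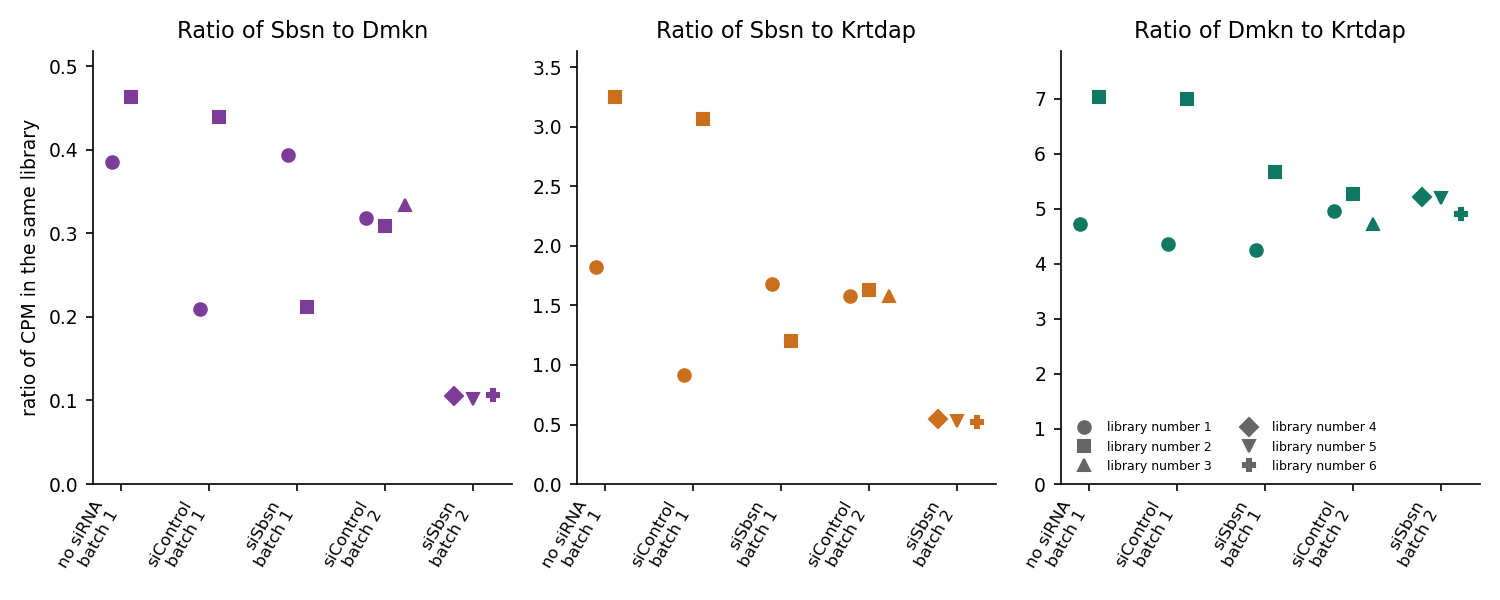
Ratio of CPM of 2 genes in the same library, for each of the 3 pairs and 12 libraries, with marker shapes for the library numbers. The ratio of *Sbsn* to *Dmkn* is 0.309 to 0.334 in siControl and 0.102 to 0.106 in siSbsn of batch 2, while in batch 1 the circle of siControl (0.210) and the square of siSbsn (0.212) sit low together. The former library has the highest *Dmkn* level of all and the latter the lowest *Sbsn* level of batch 1.

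The 3 ratios were compared between siSbsn and siControl over 10 libraries by exact permutation of the labels inside each batch (two-sided), whose smallest p is 0.0167. *Sbsn* to *Dmkn* differed by -0.85 on the log2 scale (exact permutation p = 0.05, 0.075 adjusted over the 3 ratios) and *Sbsn* to *Krtdap* by -0.91 (exact permutation p = 0.05, adjusted 0.075). Neither passed at 0.05 after adjustment. *Dmkn* to *Krtdap* differed by -0.07 (exact permutation p = 0.75, adjusted 0.75). Within batch 2 the differences were -1.62, -1.59 and 0.03, with exact permutation p of 0.1, 0.1 and 0.7 where 0.1 is the smallest possible. Within batch 1 they were -0.07, -0.24 and -0.17, and an exact permutation test of 2 against 2 cannot go below p = 0.333.

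An alternative without the number 1 siRNA libraries of batch 1 was added after the ratios had been seen. It leaves 1 library in each siRNA group of that batch, which is assumed to vary like the others. With both batches in the model the log2-fold change of *Sbsn* was then -1.47 (SE 0.123, edgeR q = 0.00232) and *Sbsn* was the 1 locus called, whereas over all alternatives its q ranged from 0.00232 to 0.497. *Dmkn* was at 0.0061 (SE 0.0726, edgeR q = 0.965) and *Krtdap* at 0.051 (SE 0.104, edgeR q = 0.785). Within batch 1 *Sbsn* was at -0.97 (SE 0.327, edgeR q = 1.0), and the difference between the batches was -0.65 (SE 0.198, edgeR q = 0.385). The choice of these libraries used the *Sbsn* values, so these values describe how the result depends on them and are no separate evidence.

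The libraries without siRNA show the background of the culture and of transfection in batch 1. They share the siControl libraries with 1 comparison above and the siSbsn libraries with another. Against no siRNA, siControl differed by a log2-fold change of -0.17 (SE 0.45, edgeR q = 0.836) for *Sbsn*, 0.35 for *Dmkn* and 0.45 for *Krtdap*. edgeR called 0 of 13176 loci (0.0%, while 2116 had an unadjusted p under 0.05) and DESeq2 called 26 (0.228%). siSbsn differed from no siRNA by -0.14 (SE 0.45) for *Sbsn*, 0.23 (SE 0.40) for *Dmkn* and 0.41 (SE 0.63) for *Krtdap*, each with an edgeR q of 1.0. The value of *Sbsn* turned on 1 library, since it was -1.07 without the library labelled siSbsn batch 1 replicate 1 and 0.42 without replicate 2 (edgeR q = 1.0 in both). edgeR and DESeq2 both called 0 loci there (0.0%), with 23 and 11 at an unadjusted p under 0.05. None of the 3 genes was called in either comparison. With libraries of the same number treated as a block, *Krtdap* was at 0.39 in siControl and 0.48 in siSbsn against no siRNA. The SE was 0.171 in both, and neither was called.

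**Figure D3:**
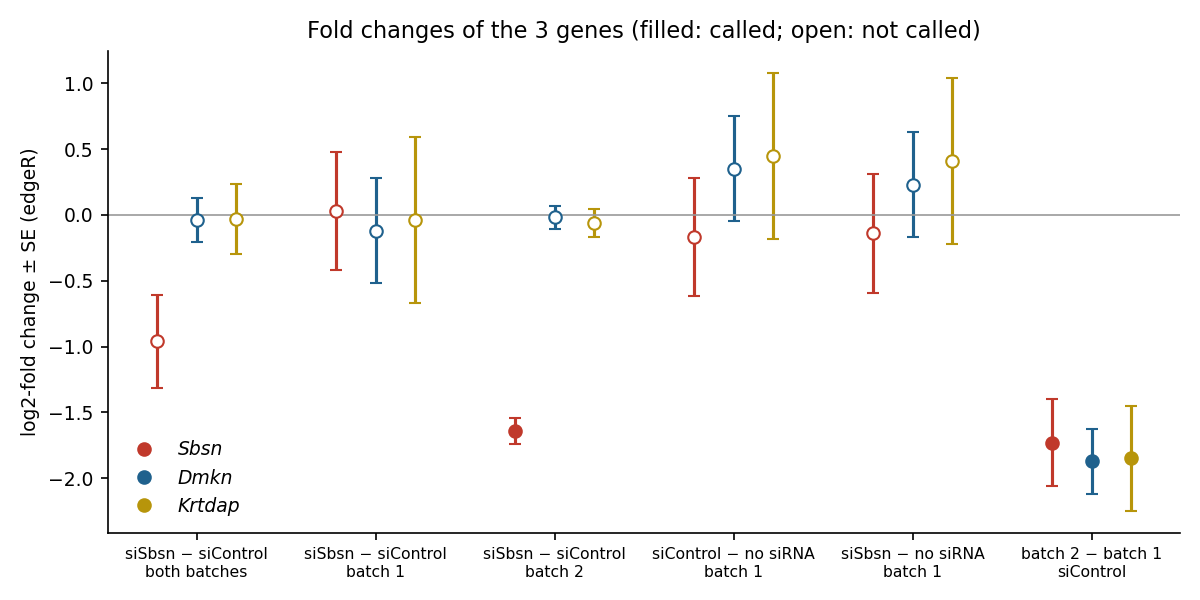
Log2-fold change with its SE from edgeR for the 3 genes in 6 comparisons, with filled points for genes called and open points for those not called. *Sbsn* alone is called between siSbsn and siControl, in batch 2 (-1.64), and all 3 genes are called at -1.73 to -1.87 between the batches in siControl.

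Batch 2 had lower levels of all 3 genes. In siControl the log2-fold change of batch 2 against batch 1 was -1.73 for *Sbsn* (SE 0.329, edgeR q = 0.00511), -1.87 for *Dmkn* (SE 0.247, edgeR q = 0.000885) and -1.85 for *Krtdap* (SE 0.398, edgeR q = 0.00849). These correspond to 30.2%, 27.3% and 27.7% of the batch 1 level. All 3 genes were called down, against 20.5% of the 13419 loci tested. Without the library labelled siControl batch 1 replicate 1, *Krtdap* was at -0.86 (edgeR q = 0.063) and was no longer called, and after removal of each library's trend on gene length it was at -0.72 (edgeR q = 0.00951). Over its alternatives the q of *Krtdap* ranged from 4.23e-05 to 0.063. Summed keratinocyte markers were at 71997 to 124358 CPM in siControl of batch 1 and at 51669 to 64251 CPM in siControl of batch 2, and fibroblast markers at 440 to 450 CPM and 398 to 452 CPM. Melanocyte markers were at 705 to 708 CPM in siControl of batch 1 and at 983 to 1036 CPM in siControl of batch 2. The part of these differences in the lower level of the 3 genes was not tested, and what else differed between the batches cannot be told apart from the batch.

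The 3 genes were set beside 4 lists of epidermal genes. A list of 28 genes was headed secreted proteins of the upper epidermis outside the locus. The heading is loose, since members such as *Ly6d* and *Lypd3* are proteins of the cell surface. The list gave 23 loci tested between the batches in siControl, where *Klk8* and *Klk14* share 1 joined locus. Of these, 21 were down-regulated and 0 up-regulated, against 20.5% and 15.8% of all loci, with a median log2-fold change of -1.92 against -0.025 over all loci tested. The serine proteases of desquamation *Klk7* (-2.12) and *Klk6* (-2.91) and the adhesion protein *Cdsn* (-2.48), which holds surface cells together, were among them. The log2-fold changes of *Sbsn*, *Dmkn* and *Krtdap* lay within the range of this list, -3.21 to -0.44.

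Structural genes of the suprabasal and granular layers had calls in both directions. Of 22 tested between the batches, 9 were down-regulated and 2 up-regulated, against 20.5% and 15.8% of all loci, with a median of -0.62. Involucrin (*Ivl*, -2.53) and loricrin (*Lor*, -2.11), proteins of the cornified envelope, and *Cnfn* (-3.35) were lower in batch 2. The keratin *Krt10* was higher (1.77), while its partner *Krt1* (0.53) and filaggrin (*Flg*, 0.88) were not called. Of 13 basal genes 4 were up-regulated and 2 down-regulated, with a median of 0.36. Of 26 transcription factors of suprabasal differentiation 3 were up-regulated and 5 down-regulated, with a median of -0.34. Over all loci 15.8% were up-regulated and 20.5% down-regulated, and the counts of the transcription factors are near these shares. *Klf4* (0.10), *Grhl3* (-0.036) and *Zfp750* (-0.34) were not called. *Hopx* (-2.50) was among the 5 down-regulated, and the 3 up-regulated were the locus of *Notch1* (1.78), *Maf* (0.91) and *Trp63* (0.57).

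The same lists were examined between siSbsn and siControl, where edgeR called no member of any list. In batch 2 the medians were 0.12 for suprabasal genes, 0.0057 for basal genes, 0.042 for the list headed secreted proteins and 0.092 for transcription factors. The median over all loci tested was -0.0072. *Krt1* was at -0.79 (SE 0.139, edgeR q = 0.318) and *Krt10* at -0.37 (SE 0.0694, edgeR q = 0.319), and DESeq2 called *Krt1* alone of the 4 lists (-0.78, q = 8.64e-05). *Krt1* was at 52.3, 61.4 and 44.5 CPM in siControl and 26.7, 35.9 and 29.1 CPM in siSbsn of batch 2, without overlap. With both batches in the model the medians were 0.23, 0.084, 0.085 and 0.19, against 0.0066 over all loci. DESeq2 called *Dlx3* alone of the 4 lists there (0.54, q = 0.018). *Krt1* was at 0.44 (SE 0.694) and *Krt10* at 0.21 in that fit, opposite to batch 2. In batch 1 *Krt1* was at 46.1 and 26.4 CPM in the libraries labelled siControl and at 335 and 46.7 CPM in those labelled siSbsn. DESeq2 called *Dsg1a* (1.55), *Dsc1* (2.12), *Flg* (2.10) and *Notch3* (1.56) up and *Cnfn* (-1.18) down in batch 1, where the suprabasal median was 0.39 by edgeR. These calls are relative to siControl. Against no siRNA, DESeq2 called *Flg* lower in siControl (-2.61, q = 0.022) and called 0 loci in siSbsn. The suprabasal median against no siRNA was -0.58 in siControl and 0.079 in siSbsn by edgeR. Which of the 2 groups accounts for the batch 1 calls was not tested.

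Among libraries of the same batch *Dmkn* and *Krtdap* varied together, and *Sbsn* followed them less closely. After the batch mean was subtracted, log2 CPM of *Dmkn* and *Krtdap* had a Pearson correlation of 0.989 over the 12 libraries. *Krtdap* ranked 4 among 6499 loci by likeness to *Dmkn*, and *Dmkn* ranked 3 by likeness to *Krtdap*. *Sbsn* had a correlation of 0.254 with each of them and ranked 2664 by likeness to *Dmkn*. Without subtraction of the batch mean the correlations of *Sbsn* were 0.876 with *Dmkn* and 0.815 with *Krtdap*. The treatment was not subtracted, so the lower level of *Sbsn* in siSbsn is part of its deviations. These are descriptions over libraries that share batch and culture conditions. The deviations of *Krtdap* ranged from -0.92 to 0.85 in batch 1 and from -0.21 to 0.30 in batch 2, so its correlation rests mostly on batch 1. Loci of other chromosomes were as close to *Dmkn*, such as *Id1* at 0.992, so the likeness was not particular to the neighbouring pair.

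The 5 loci most like *Dmkn* were *Id1* (0.992), *Hacd2* (0.990), *Slc25a11* (0.990), *Krtdap* (0.989) and *Ctnnbip1* (0.988). Those most like *Krtdap* were *Shf* (0.992), *Ptgr1* (0.991), *Dmkn* (0.989), *Ly6d* (0.989) and *Tecr* (0.987), and those most like *Sbsn* were *Phldb1* (0.923), *Pdgfb* (0.912), *Magt1* (0.897), *Syde1* (0.89) and *Tram1* (0.89). The lists for *Dmkn* and *Krtdap* had no locus in common other than the pair itself, and none of the 3 lists held a further gene of the locus. Among *Krt1*, *Krt10*, *Ivl*, *Lor*, *Klf4*, *Grhl3* and *Zfp750*, *Lor* had the highest correlation with *Dmkn* (0.946) and *Krtdap* (0.898). With *Sbsn* it was at 0.216. The others differed. *Krt1* and *Krt10* were at 0.561 and 0.682 with *Dmkn* and at 0.521 and 0.538 with *Sbsn*, and *Ivl* was at 0.708 and 0.031. *Klf4*, *Grhl3* and *Zfp750* were at -0.45, -0.525 and -0.08 with *Dmkn* and at -0.12, -0.128 and -0.499 with *Sbsn*.

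In these deviations the library labelled siControl batch 1 replicate 1 was the highest for *Dmkn* and *Krtdap* and was below the batch mean by 0.12 for *Sbsn*. The library labelled siSbsn batch 1 replicate 1 was second highest for *Dmkn* and *Krtdap* and stood 0.61 above the batch mean for *Sbsn*.

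**Figure D4:**
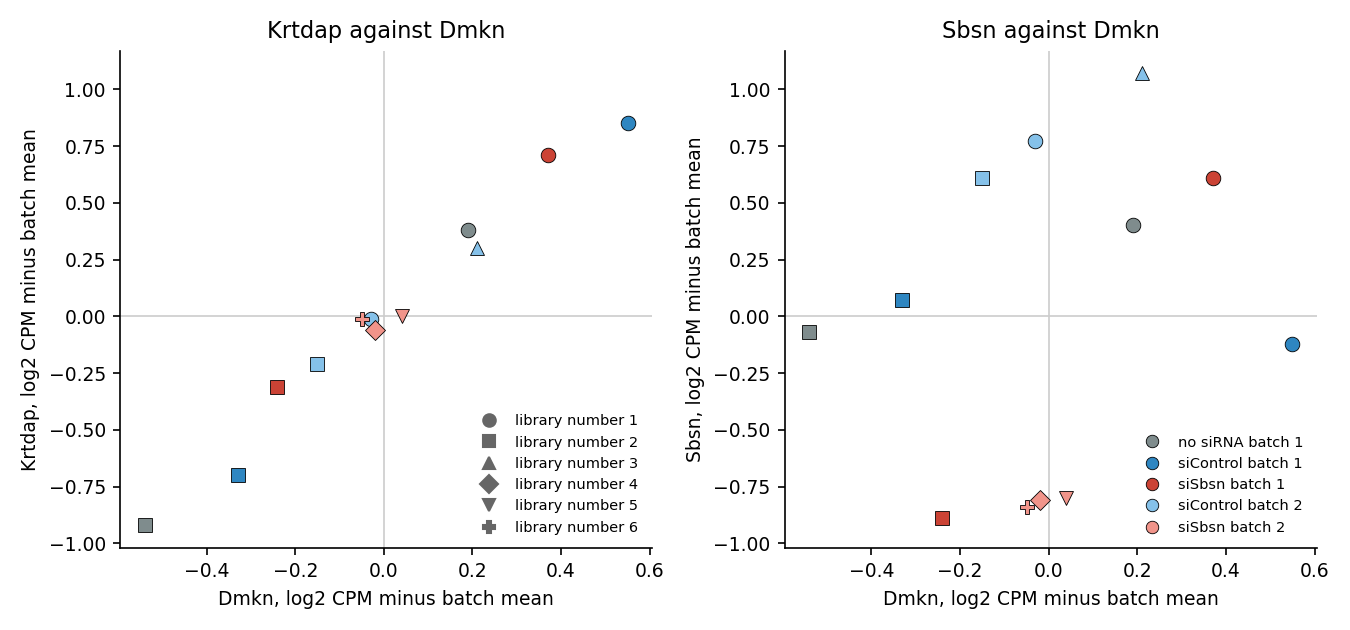
Log2 CPM minus the batch mean of *Krtdap* (left) and *Sbsn* (right) against that of *Dmkn* in the 12 libraries, with colors for groups and marker shapes for library numbers. *Krtdap* follows *Dmkn* along 1 line (Pearson correlation 0.989), whereas *Sbsn* does not (0.254), and the dark blue circle of siControl batch 1 is high for *Dmkn* but at -0.12 for *Sbsn*.

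Genes around the locus were examined for the same differences. Within 200 kb of the 3 genes lay 24 other loci, after 8 comma-joined loci had been left out, and 17 of them were tested. Between siSbsn and siControl of batch 2, 0 were called (0.00774% of all loci were). The log2-fold changes ranged from -0.37 (*Atp4a*, at most 0.54 CPM) to 0.067 (*Kmt2b*), with a median of -0.13 against -0.0072 over all loci tested. The nearest tested locus of 1 gene name before *Sbsn* was *Tmem147*, a membrane protein of the endoplasmic reticulum. It was not called between siSbsn and siControl in batch 2 (edgeR q = 0.571). With both batches in the model 0 of the 17 loci were called, and they ranged from -0.44 (*Zbtb32*) to 0.19 (*Kmt2b*). Their median was -0.29 against 0.0066 over all loci tested. In batch 1 alone 0 were called as well, with a range from -0.99 (*Upk1a*) to 0.33 (*Kmt2b*) and a median of -0.38 against -0.0068. The surrounding loci thus lay mostly below 0 without a call, and why was not tested.

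Between the batches in siControl, 7 of the 17 loci were called down and 1 up (*Upk1a*, 0.54), against 20.5% and 15.8% of all loci, with a median of -0.52. *Tmem147* was at -1.22 (edgeR q = 0.00448), *Zbtb32* at -1.47 (edgeR q = 0.00214) and *Fam187b* at -1.46 (edgeR q = 0.0027). *Sbsn*, *Dmkn* and *Krtdap*, at -1.73 to -1.87, were each lower than all 17 of them in this fit. *Krtdap* rose to -0.86 with 1 library left out, and it was also higher after removal of the trend on gene length. The 17 loci were not compared with it under these alternatives. Whether the locus differs from its surroundings was not tested.

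**Figure D5:**
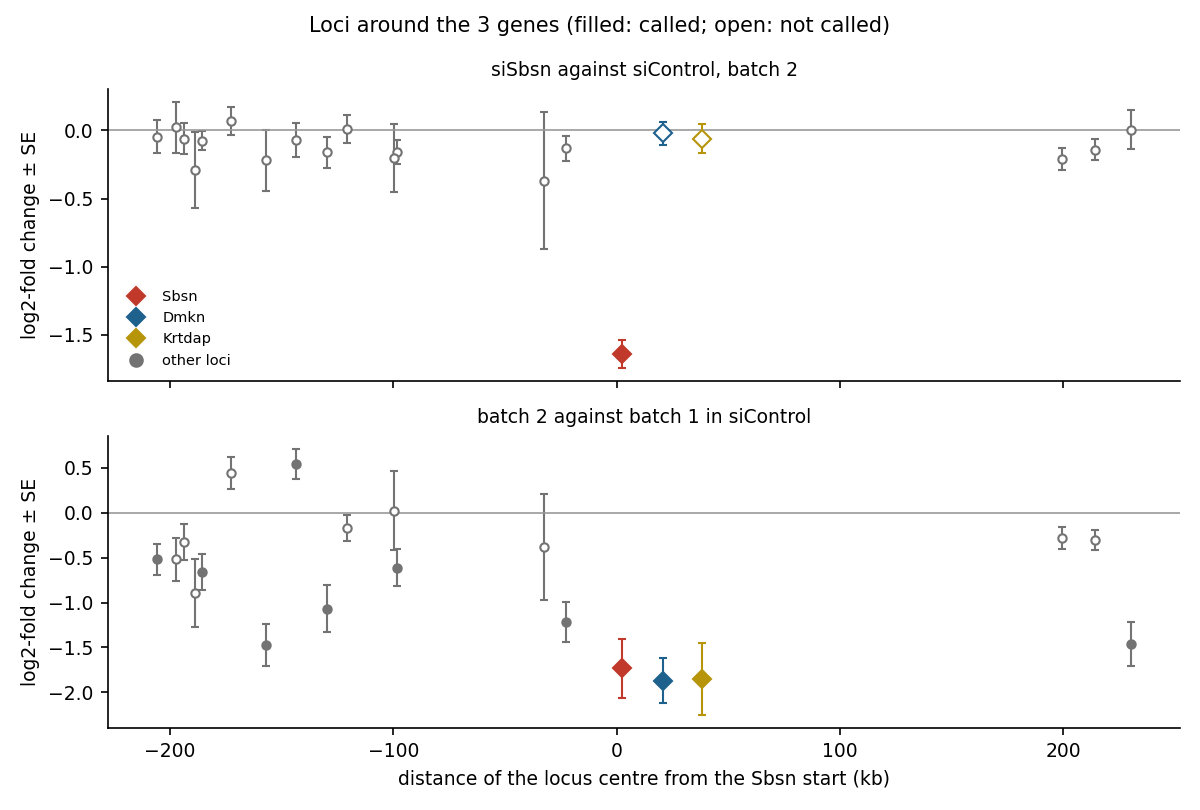
Log2-fold change with its SE of the loci tested around the 3 genes, by the distance in kb of the locus centre from the *Sbsn* start, for siSbsn against siControl in batch 2 (top) and for batch 2 against batch 1 in siControl (bottom). *Sbsn* alone is called at the top (-1.64), and the 3 genes lie below every other locus at the bottom.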

How the data were processed

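RNA-Seq was done on 12 libraries of differentiating mouse keratinocyte cultures, 10 of them treated with siRNA. Per the Methods, the authors aligned the reads to mm10 with STAR, kept unique alignments and counted them on the UCSC KnownGene genes. Some loci of the deposited table carry several gene names. The deposited values are whole-number counts with no normalization. The strand setting of the counting is not given in the sources used. Starts were printed after adding 1, since 51.3% then matched an annotated transcript start and 4.85% as given. 0 columns of other series were present.

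Counts were tested with the edgeR 4.0.16 quasi-likelihood test (R 4.3.3) after TMM and its filter on low counts. The standard error was obtained from the log2-fold change and the F statistic, as the size of the former over the root of the latter. A call needed a Benjamini-Hochberg q under 0.05 together with a log2-fold change beyond 0.5 in either direction. In the difference between batches q alone was used. DESeq2 1.42.0 was an alternative. CPM is the count scaled by the TMM-adjusted library size, which was taken over the filtered loci. Total counts of 27934836 or more per library gave each of the 3 genes at least 3616 reads, so counting error was small beside their levels. In siSbsn of batch 2 the spread between libraries was itself small, with an SD of 2.08 around a mean of 123 CPM for *Sbsn*. Counting error was not set apart from it. Groups and batches came from the labels. The other alternatives were median-of-ratios size factors, no filter, removal of the trend on gene length, all 12 libraries in 1 fit, a replicate block and leaving out each library. The fits were tested on simulated data.

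The named genes were the 3 members, the 5 loci most correlated with each, loci within 200 kb, 8 differentiation genes (*Krt1*, *Krt10*, *Ivl*, *Lor*, *Flg*, *Klf4*, *Grhl3* and *Zfp750*) and up to 3 genes of smallest p per list, and others were named after their values were seen where a count of 5 or fewer called for it. The members and lists were chosen with earlier results of these data known. RefSeq windows were found for all 3 genes.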

Additional observations from a re-analysis of the deposited data

Results flagged for a closer look

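The comma-joined locus of *Sbsn* and *Gapdhs*, which entered no comparison, held reads. It had between 0 and 4 counts in the libraries of batch 1. In batch 2 it had 11, 7 and 11 counts in siControl and 5, 6 and 6 in siSbsn, against 13163 to 14239 and 3616 to 6370 counts of *Sbsn* itself. The highest value was 11 counts, above the 3 counts that a count of 0 allows. It amounted to at most 0.166% of the *Sbsn* count of the same library. Among the 5 libraries of siControl and of siSbsn over both batches, no gap of 1 library to the others passed 0.71 of the range for the 3 genes or their ratios, the largest being 0.6. The range pools the batches, which differed in the level of all 3 genes. The check therefore cannot show whether a library stands apart within its batch. The library labelled siControl batch 1 replicate 1 stood apart on the second principal component, at 57.3.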

How the results depend on the processing

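Over the alternatives run, *Sbsn* stayed lower in siSbsn than in siControl in batch 2 and with both batches in the model, and the 3 genes stayed lower in batch 2 than in batch 1. Of 192 values from alternatives that left out no single library, 151 kept their direction and side of the threshold, as did 159 of 202 values with 1 library left out. Most values that changed direction were those of *Dmkn* and *Krtdap* between siRNA groups, which lie near 0. The cause of the changes was not tested.

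Removal of the trend on gene length moved siSbsn against siControl to 0.14 for *Dmkn* and 0.42 for *Krtdap* in both batches, to 0.23 and 0.86 in batch 1 and to 0.054 and 0.11 in batch 2, where 6 loci were called. It gave -0.19 for *Dmkn* and -0.74 for *Krtdap* (-0.058 without it) as the difference between the batches, and -0.038 for *Dmkn* and -0.51 for *Krtdap* in siControl against no siRNA. None of these was called. DESeq2 called 96 loci in both batches, 168 in batch 1, 7 in batch 2, 206 for the difference between the batches, where *Sbsn* was at -1.70 and called, and 26 in siControl against no siRNA. Without a filter on low counts edgeR called 851 loci in batch 1, 9 in batch 2, 17 for the difference and 815 in siControl against no siRNA. With all 12 libraries in 1 fit, *Krtdap* was at 0.0086 and 1294 loci were called in batch 1, and in batch 2 *Sbsn* was at -1.65 without a call and 0 loci were called.

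The numbers of batch 1 were used as a replicate block. Deviations of libraries with the same number correlated at 0.379, 0.805 and 0.457 between pairs of conditions, all above 0. With 2 numbers each condition gives 1 difference, and no label says what the numbers mark. Whether they pair the libraries was not tested. With the replicate block, siSbsn against siControl was at -1.06 for *Sbsn* (edgeR q = 0.115) and 0.014 for *Krtdap* in both batches, and at -0.13 for *Sbsn* and 0.086 for *Krtdap* in batch 1. The difference between the batches had 73 loci called, and the block changed no call of the 3 genes. It gave *Krtdap* smaller standard errors in batch 1, as in siSbsn against no siRNA (0.48, SE 0.171, edgeR q = 1.0, against an SE of 0.63 without it). In that comparison 254 loci had an unadjusted edgeR p under 0.05 with the block and 23 without it. The ratios differed by -0.85, -0.91 and -0.067 under the block (exact permutation p = 0.05, 0.05 and 0.625). No block was fitted in batch 2 because its groups share no number.

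Without the number 1 siRNA libraries of batch 1, an alternative added after seeing the data, siSbsn against siControl was at -1.47 for *Sbsn*, 0.0061 for *Dmkn* and 0.051 for *Krtdap* in both batches with 1 locus called, and at -0.97, 0.082 and 0.39 in batch 1. The difference between the batches was -0.069 for *Dmkn*, with 17 loci called. siControl against no siRNA was at -0.19 for *Dmkn* and -0.56 for *Krtdap*, and siSbsn against no siRNA at -0.11 and -0.18, with *Sbsn* at -1.07.

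With 1 library left out at a time, siSbsn against siControl in both batches ranged from -1.40 to -0.82 for *Sbsn*, -0.15 to 0.11 for *Dmkn* and -0.22 to 0.24 for *Krtdap*. In batch 1 the ranges were -0.90 to 0.59, -0.51 to 0.41 and -0.63 to 0.98, with 0 to 2618 loci called, the most without the library labelled siControl batch 1 replicate 2. In batch 2 they were -1.73 to -1.52, -0.081 to 0.071 and -0.16 to 0.071, with 1 to 10 loci called, the most without siControl batch 2 replicate 3. The difference between the batches ranged from -2.26 to -0.79, -0.43 to 0.44 and -1.04 to 0.51, with 0 to 4775 loci called. *Sbsn* passed there without the library labelled siControl batch 1 replicate 2 (-1.80, edgeR q = 0.0281), which gave the 4775, and without that labelled siSbsn batch 1 replicate 2 (-2.26, edgeR q = 0.00251), which gave 411. siControl against no siRNA ranged from -0.38 to 0.075, -0.19 to 0.75 and -0.56 to 1.24, with 0 to 3213 loci called, the most without the library labelled siControl batch 1 replicate 2. siSbsn against no siRNA ranged from -1.07 to 0.42, -0.10 to 0.63 and -0.18 to 1.21. Batch 2 against batch 1 ranged from -1.85 to -1.62, -2.23 to -1.36 and -2.42 to -0.86, with 2063 to 7192 loci called. Fewest were called without the library labelled siControl batch 1 replicate 1, and 2331 and 2649 without siControl batch 2 replicates 2 and 1. The ratio of *Dmkn* to *Krtdap* ranged from -0.24 to 0.10, that of *Sbsn* to *Dmkn* from -1.11 to -0.58 and that of *Sbsn* to *Krtdap* from -1.35 to -0.48.

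Depth did not limit the 3 genes. The batch 1 comparisons are limited by 2 libraries per group.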
